A study of Mus musculus with 6 samples.

Results

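The Lef1 and Tcf7 loci are described here by the accessible DNA regions found in and around these genes, each taken with 50 kb on both sides. The assay was ATAC-seq, which uses the transposase Tn5 to cut open chromatin and tag it for sequencing. Peaks of 3 deposited lists were merged wherever they shared at least 1 bp, and 76 of the 81315 merged regions overlapped the 2 windows, 45 at Lef1 and 31 at Tcf7. The cells were CD4 T cells of wild-type C57BL/6 mice, with 2 libraries labelled as biological replicates in each of 3 conditions. Naive cells were untreated. Th17 cells were grown from isolated naive cells for 48 h or 72 h on plate-bound antibodies to CD3ε (0.25 μg/mL) and CD28 (1 μg/mL) with TGF-β at 0.1 ng/mL and IL-6 at 20 ng/mL. The sources used here give no age, no sex and no sorting of the cultured cells. With 1 peak list per condition there was no replicate spread, so no difference below has a p-value. Read depth is unknown. A region was called lost when the later list had no peak in it and gained when the earlier list had none, and a missing peak does not show that the DNA was closed. The lists cannot tell apart a site that closed in every cell from a site that closed in a part of the culture.

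Lef1 encodes LEF-1 and Tcf7 encodes TCF-1, the HMG-box transcription factors of the TCF/LEF family that are abundant in naive T cells. Both factors bind the minor groove of DNA and recruit either the coactivator β-catenin or corepressors of the TLE family. They act in T cell development and help to keep mature T cells in an undifferentiated, long-lived state, and their levels usually fall as T cells become effector cells. Each gene has transcripts from more than 1 start, and short forms of the proteins lack the part that binds β-catenin.

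Lef1 lies on the plus strand of GRCm38 at chr3:131110297-131224357, a body of 114061 bp. Tcf7 lies on the minus strand at chr11:52246527-52283383, a body of 36857 bp. RefSeq for this build lists 4 Lef1 starts and 2 Tcf7 starts in the promoter table used, which has no exons, so regions are placed inside or outside a gene and not in an exon, intron or UTR. The Lef1 window also holds Hadh, which encodes a mitochondrial fatty acid oxidation enzyme, at chr3:131233419-131272101, and the long noncoding RNA gene Gm36603. The Tcf7 window also holds Skp1, which encodes a subunit of SCF ubiquitin ligases, at chr11:52230522-52246858, the long noncoding RNA gene Gm30217 at chr11:52307484-52318720, and the olfactory receptor gene Olfr1371. The Skp1 body overlaps the far end of Tcf7.

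The promoter bases below are shown because the peak lists differ at them. They are the 250 bases before 3 RefSeq starts (GRCm38.p6), printed 5′ to 3′ on the gene's strand, and capitals mark the bases under a naive peak.
Lef1, first start, plus strand, chr3:131110047-131110296: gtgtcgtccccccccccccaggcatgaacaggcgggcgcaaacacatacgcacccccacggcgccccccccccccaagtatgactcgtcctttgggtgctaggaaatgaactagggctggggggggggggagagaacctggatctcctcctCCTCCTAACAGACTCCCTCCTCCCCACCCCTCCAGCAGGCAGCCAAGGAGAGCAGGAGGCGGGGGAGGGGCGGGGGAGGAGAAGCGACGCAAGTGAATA
Lef1, start inside the gene, plus strand, chr3:131112541-131112790: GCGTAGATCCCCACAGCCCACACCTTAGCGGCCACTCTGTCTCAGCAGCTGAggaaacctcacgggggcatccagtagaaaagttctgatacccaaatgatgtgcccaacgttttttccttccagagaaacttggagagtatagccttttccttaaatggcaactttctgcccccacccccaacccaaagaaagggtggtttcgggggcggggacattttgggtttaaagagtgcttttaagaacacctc
Tcf7, inner start, minus strand, chr11:52282596-52282845: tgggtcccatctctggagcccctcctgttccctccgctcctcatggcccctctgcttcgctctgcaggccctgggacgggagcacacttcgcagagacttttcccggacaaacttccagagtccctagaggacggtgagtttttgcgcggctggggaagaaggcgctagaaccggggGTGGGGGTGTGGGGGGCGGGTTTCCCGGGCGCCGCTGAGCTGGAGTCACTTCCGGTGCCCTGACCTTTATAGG
At the first Lef1 start, 99 of the 250 bases lay under the naive peak, 58 under the 48 h peak and 250 under the 72 h peak. At the Lef1 start inside the gene these numbers were 52, 89 and 128. At the inner Tcf7 start they were 73, 0 and 0, so peaks covered the stretch before that start in the naive list alone. The lists also differed at 2 starts whose bases are not printed. These numbers were 38, 0 and 53 at the Tcf7 start at 52283014, and 125, 84 and 250 at the second Lef1 start.

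Motifs of 6 factor families were searched on both strands of the 300-base windows around the starts, which run from 250 bases before to 50 bases after each. The letters were CTTTGAA and CTTTGAT for TCF/LEF factors, TGTGGTTN for RUNX, AGGAAGT and CGGAAGT for ETS, TGANTCA for AP-1 and BATF, TTCNNNGAA for STAT, and TAGGTCA and TGGGTCA for ROR factors. The STAT letters can contain the TCF/LEF letters CTTTGAA, and no other pair is nested. The 6 windows of Lef1 and Tcf7 held 2 matches, both of the ETS letters, which 15.1% of the 32851 RefSeq promoter windows hold. The match at Tcf7 was CGGAAGT on the antisense strand, beginning 26 bases before the inner start at chr11:52282615-52282621, under the naive-only peak. The match at Lef1 was AGGAAGT on the sense strand, 13 bases before the fourth start, where no list had a peak. TCF/LEF letters were in none of the 6 windows and in 8.65% of all windows. The first 2 Lef1 windows overlap for most of their length.

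Regions were lost at both genes at 48 h. Lef1 had 35 naive regions and 17 regions at 48 h, with 26 lost, 9 kept and 8 gained. Tcf7 had 22 naive regions and 10 at 48 h, with 18 lost, 4 kept and 6 gained. The 48 h list was also shorter over the genome, with 37425 regions, beside 51917 in the naive list and 51941 at 72 h. The lost share was 74.3% at Lef1 (exact 95% interval 56.7 to 87.5%) and 81.8% at Tcf7 (59.7 to 94.8%), and over the genome 55.9% of naive regions were lost at 48 h. Both intervals lie above the genome's share, but both include 63%, the median over the 390 genes with at least 20 naive regions. The intervals cover counting error only, and regions of 1 gene are not independent of each other. The share of 48 h regions that were gains was 47.1% at Lef1 (23.0 to 72.2%) and 60% at Tcf7 (26.2 to 87.8%), against 38.8% over the genome, a value inside both intervals.

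At 72 h fewer naive regions were missing than at 48 h. Lef1 had 21 regions, with 21 of the naive regions lost, 14 kept and 7 gained, and Tcf7 had 14 regions, with 15 lost, 7 kept and 7 gained. The lost share was 60% at Lef1 (42.1 to 76.1%) and 68.2% at Tcf7 (45.1 to 86.1%), and the genome's share of 49.2% lay inside both intervals. The gained share was 33.3% at Lef1 (14.6 to 57.0%) and 50% at Tcf7 (23.0 to 77.0%), also with the genome's 49.2% inside. These comparisons use the same naive list as those at 48 h. The narrower peaks of each list, those under its median width, were also left out. At 72 h Lef1 then had 4 of 9 naive regions lost and 6 gained, and Tcf7 had 5 of 7 lost and 6 gained. At this setting neither gene had more regions lost than gained. With the widest 40000 peaks of each list, Lef1 had 12 of 21 lost and 8 gained, and Tcf7 had 12 of 16 lost and 5 gained.

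Between 48 h and 72 h, Lef1 had 8 regions gained and 4 lost, and Tcf7 had 6 gained and 2 lost. The gained share of the 72 h regions was 38.1% at Lef1 and 42.9% at Tcf7, and it was 39.4% over the genome. The lost share of the 48 h regions was 23.5% at Lef1 and 20% at Tcf7, and it was 15.9% over the genome. Of the 14 regions gained at both genes together, 9 had been present in naive cells, 6 at Lef1 and 3 at Tcf7. Thus 20.5% (9.8 to 35.3%) of the 44 naive regions lost at 48 h had a peak again at 72 h, beside 19.2% over the genome.

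**Figure D1:**
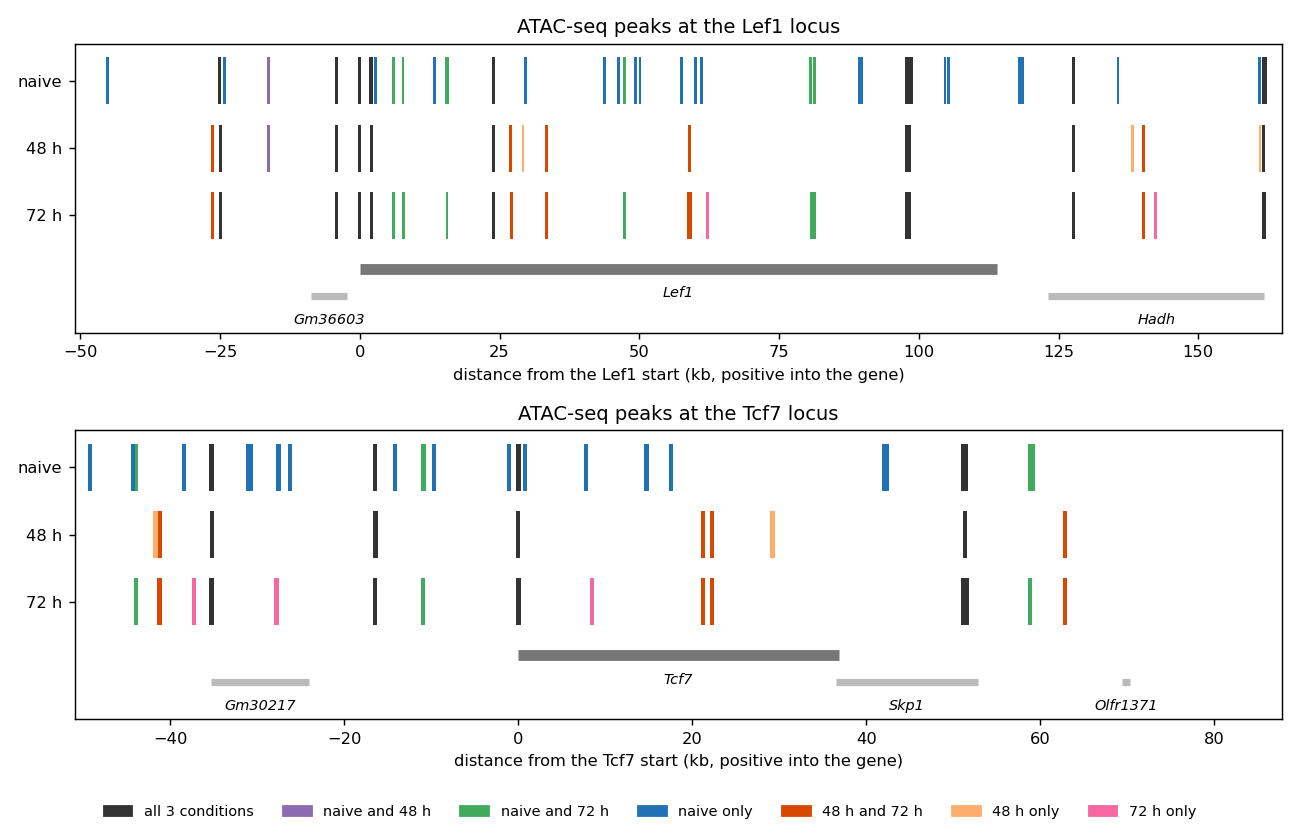
Peaks in the naive, 48 h and 72 h lists along the Lef1 and Tcf7 windows, with distance from the gene's start in kb on the x axis (positive in the direction of transcription) and colour for the lists in which the region was present. Peaks are drawn to scale but at least 0.5 kb wide, and grey bars are gene bodies. Naive-only regions were 14 of the 29 in the Lef1 body (48.3%), beside 44.4% of the whole Lef1 locus. They were 9 of the 17 before the Tcf7 start (52.9%), beside 48.4% of the whole Tcf7 locus.

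Bases under peaks followed the same order. At Lef1 they summed to 9440 bp in naive cells, 4780 bp at 48 h and 7222 bp at 72 h, or 50.6% and 76.5% of the naive sum. At Tcf7 they summed to 6850 bp, 2522 bp and 4007 bp, or 36.8% and 58.5% of the naive sum. Over the genome the sums at 48 h and 72 h were 63.7% and 89.1% of the naive one. The naive list was therefore the widest at both genes, as it was over the genome, and how much was called in each list moves these sums.

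By presence class, 20 of the 45 Lef1 regions (44.4%, 29.6 to 60%) and 15 of the 31 Tcf7 regions (48.4%, 30.2 to 66.9%) were found in naive cells only, where the genome had 28.8%. Regions present in all 3 conditions numbered 8 at Lef1 (17.8%, 8.0 to 32.1%) and 4 at Tcf7 (12.9%, 3.6 to 29.8%), where the genome had 25.6%. Regions gained by 48 h and still present at 72 h numbered 5 at Lef1 (11.1%) and 4 at Tcf7 (12.9%), near the genome's 13.1%. Regions at 72 h only numbered 2 of 45 at Lef1 (4.44%, 0.5 to 15.1%) and 3 of 31 at Tcf7 (9.68%, 2.0 to 25.8%), beside 18.3% of all regions. Lef1 had 3 regions at 48 h only (6.67%) and Tcf7 had 2 (6.45%), beside 4.73% over the genome. A single region, at Lef1, was present in naive cells and at 48 h and absent at 72 h. It made up 2.22% of the Lef1 regions, and this class held 2.57% of all regions.

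**Figure D2:**
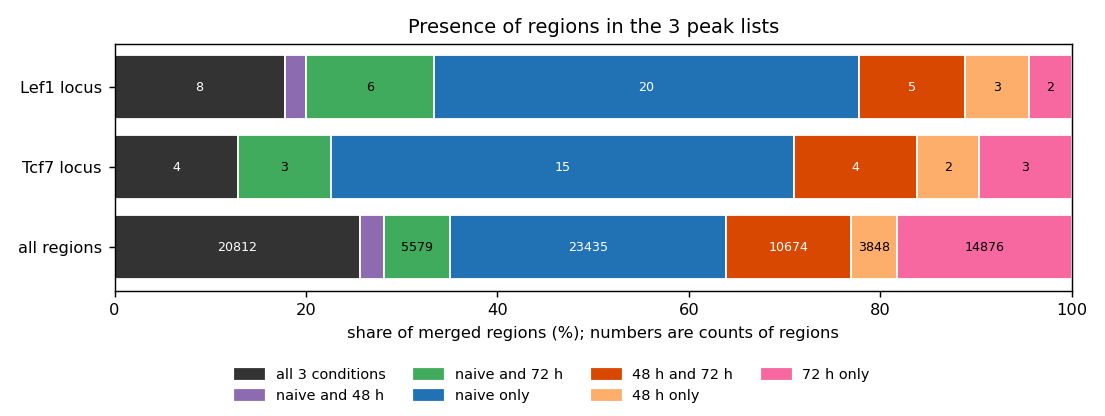
Share of merged regions (x axis, %) in each of the 7 presence classes at the Lef1 locus (45 regions), the Tcf7 locus (31 regions) and over all 81315 regions, with counts of regions printed in the bars. The naive-only part holds 20 regions at Lef1 and 15 at Tcf7, and the part at 72 h only holds 2 and 3.

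Regions were then counted by their place. At Lef1, 24 of the 35 naive regions overlapped the gene body, and 20 of these 24 were lost at 48 h and 14 at 72 h. All 6 Lef1 regions that returned at 72 h lay in the body, as did 20 of the 26 Lef1 naive regions lost at 48 h. Before the Lef1 start there were 5 naive regions, of which 2 were lost at 48 h and 3 at 72 h, and beyond its end there were 6, of which 4 were lost at each time. At Tcf7, 13 of the 22 naive regions lay before the start, where 11 were lost at 48 h and 9 at 72 h. The Tcf7 body held 5 naive regions, of which 4 were lost at both times, and beyond its end 3 of 4 were lost at 48 h and 2 at 72 h. With this few regions a place, no share was compared between them. Over the genome, at any place, 55.9% of naive regions were lost at 48 h and 49.2% at 72 h.

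At the start of Lef1 the region chr3:131109971-131110451 was present in all 3 conditions. Its peak measured 132 bp in naive cells, 100 bp at 48 h and 481 bp at 72 h, and its deposited score was 41 at 48 h and 132 at 72 h. The score is the authors' own peak value, of unstated scale, given for the Th17 lists only, and it is used only within a list: these scores stood at percentile 16.5 of the 48 h list and percentile 73.7 of the 72 h list. A second region inside the gene, chr3:131112011-131112668, ended 123 bp before the third start and was of similar width throughout, with 582 bp, 501 bp and 605 bp. The fourth start, at 131156294, had no region over it, and the nearest, chr3:131156513-131156633, was 219 bp away and found in naive cells only.

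The region with the highest score at Lef1 lay deep in the gene, 97.6 kb past the start, at chr3:131207850-131209204. Its bases under peaks were 1192 bp in naive cells, in 2 peaks, 996 bp at 48 h, also in 2 peaks, and 1140 bp at 72 h in 1 peak. Its highest scores were 213 and 293, at percentile 95.8 of the 48 h list and percentile 96.3 of the 72 h list. On both sides of it lay regions of naive cells only: chr3:131199633-131199855 and chr3:131199958-131200228 before it, and chr3:131214825-131215116 and chr3:131215523-131215792 beyond it. The third of these, 292 bp wide, was the widest naive-only region of the locus. This region was thus kept while the naive regions next to it on both sides, at gaps of 7621 bp and 5620 bp, had no later peak.

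The gain with the highest 72 h score in the Lef1 body lay near its middle. The region chr3:131168983-131169602, 58.7 kb past the start, had no naive peak, a peak of 620 bp with a score of 94 at 48 h, and 2 peaks with a highest score of 125 at 72 h. Those scores stood at percentiles 66.7 and 71.5 of their lists. The naive-only regions chr3:131167764-131168037 and chr3:131170269-131170468 lay 945 bp before and 666 bp after it. Naive and Th17 peaks thus alternated along this stretch. The other gains in the body, chr3:131137213-131137501 and chr3:131143638-131143777 at both times, chr3:131139388-131139593 at 48 h only and chr3:131172443-131172585 at 72 h only, had scores from 35 to 46.

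Of the regions of Lef1 that returned at 72 h, the widest was chr3:131190708-131191306, with a naive peak of 518 bp and a 72 h peak of 312 bp. The 6 returning regions had 72 h scores from 34 to 69, with a median of 44.5, where all returning regions of the genome had a median of 52. The region present in naive cells and at 48 h only, chr3:131093800-131094088, lay 16.2 kb before the start, with widths of 289 bp and 175 bp and a 48 h score of 37.

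The Lef1 window held 8 regions that lay in Hadh. The region chr3:131271629-131272562 covers the Hadh start and was present throughout, with 934 bp, 600 bp and 718 bp and scores of 179 and 210. Inside Hadh, chr3:131250346-131250614 was gained at both times with scores of 80 and 177, the latter the third highest 72 h score of the window, and chr3:131252502-131252648, found at 72 h alone, had a score of 68. A naive-only region, chr3:131271150-131271251, ended 5 bp before a region of 48 h only, chr3:131271257-131271453, so this pair of a loss and a gain would be 1 shared region under a rule that joins near peaks.

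At Tcf7 the region chr11:52283212-52283539, which covers the outer end of the gene body, was present in all 3 conditions. The first of the 2 starts in the promoter table, at 52283014, lay 198 bp from this region, and distances from the Tcf7 start are measured here from the outer end of the gene body. Its peak measured 244 bp in naive cells, 137 bp at 48 h and 328 bp at 72 h, with scores of 63 and 134 at percentiles 45.5 and 74.3 of their lists. The regions at the outer start of Lef1 and at the outer end of Tcf7 were thus narrowest at 48 h and widest at 72 h. About 0.5 kb further in, the region chr11:52282490-52282668 over the inner start was found in naive cells only, with a width of 179 bp. It is the region whose bases are printed above in capitals.

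The widest naive-only region of either window lay before the Tcf7 start. The region chr11:52313841-52314706, 30.5 kb before the start and inside Gm30217, had a naive peak of 866 bp and no peak at 48 h or 72 h, and the nearest Th17 peak was 2619 bp away. Wide naive regions were seldom lost: of the 4390 naive regions with at least 866 bp under naive peaks, 64 (1.46%) were found in naive cells only. The region was picked as the widest naive-only one of its locus, and the cut is its own width. The share therefore does not measure how unusual this loss is. The neighbouring regions chr11:52309516-52309756 and chr11:52310880-52311036 were also naive only. A weak region of 72 h only, chr11:52311111-52311221, lay 74 bp beyond the latter, with a score of 39.

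By contrast, chr11:52299611-52300116, 16.2 kb before the Tcf7 start, was present throughout with 462 bp, 388 bp and 473 bp. Its scores of 177 and 232 were the highest of the window in both Th17 lists and stood at percentiles 91.0 and 91.3. A further region before the start, chr11:52318445-52318843, was also kept, with 236 bp, 329 bp and 399 bp, with scores of 67 and 66. The returning regions before the start were chr11:52294202-52294471, at 10.8 kb with a 72 h score of 86, and chr11:52327256-52327506, at 43.9 kb with a score of 40. The gains here were chr11:52324472-52324782 at both times (scores 53 and 62), chr11:52325052-52325169 at 48 h only (69) and chr11:52320519-52320804 at 72 h only (33).

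The Tcf7 body held 4 naive-only regions, 4 gains and the kept region at its outer end. The 4 naive-only regions of the body lay within 17.4 kb of the start, at chr11:52282490-52282668, chr11:52275405-52275840, chr11:52268455-52268850 and chr11:52265653-52265955, with widths of 179, 436, 396 and 303 bp. Of the 4 gains in the body, 3 lay further in, between 21.2 and 29.2 kb from the start. The strongest of them, chr11:52260934-52261310, had scores of 70 at 48 h and 135 at 72 h, at percentiles 51.9 and 74.5, and chr11:52262008-52262220 next to it had 40 and 58. The third was chr11:52254107-52254209 at 48 h only, with a score of 35. The fourth, chr11:52274832-52274973 at 72 h only, had a score of 38 and lay 431 bp from a naive-only region.

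Beyond the Tcf7 end, chr11:52231611-52232497 covers a Skp1 start and was present throughout, with 850 bp, 496 bp and 854 bp and scores of 44 and 170. The regions chr11:52240949-52241191 and chr11:52241268-52241428 inside Skp1 were naive only. Further on, chr11:52224007-52224758 had a naive peak of 752 bp, no peak at 48 h and a peak of 129 bp with a score of 37 at 72 h, so it counts as returned although a small part of it did. Of the naive regions with at least 752 bp under peaks, 4.95% were lost at 48 h over the genome. This cut too is the region's own width, and the region was named as the widest of its class. The last region, chr11:52220457-52220565, was gained at both times with scores of 39 and 68.

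The regions nearest to the edges of the windows were as follows. At Lef1 the last regions inside lay 45.1 kb before the gene (naive only) and 47.3 kb beyond it (all 3 conditions), and the first outside lay 52.6 kb before it (naive cells and 72 h) and 61.8 kb beyond it (naive only). At Tcf7 they lay 49.2 kb before the start (naive only) and 26.0 kb beyond the end (48 h and 72 h), and the first outside lay 52.7 kb before the start (48 h only) and 136.9 kb beyond the end (naive only).

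Regions kept in all 3 conditions changed in width. At Lef1, 7 of 8 were narrower at 48 h than in naive cells, with a median ratio of 0.82, and at 72 h 4 were wider and 4 narrower, with a median ratio of 1.0. At Tcf7, 3 of 4 were narrower at 48 h, with a median ratio of 0.71, and all 4 were wider at 72 h, with a median ratio of 1.18. Of these, the region at the Skp1 start changed little, from 850 bp in naive cells to 854 bp at 72 h. The region chr11:52299611-52300116 went from 462 to 473 bp. The others went from 244 to 328 bp and from 236 to 399 bp. Over the genome 79.4% of such regions were narrower at 48 h and 67.4% at 72 h, with median ratios of 0.75 and 0.88. Width depends on the calling of each list, and its part in these differences was not tested.

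**Figure D3:**
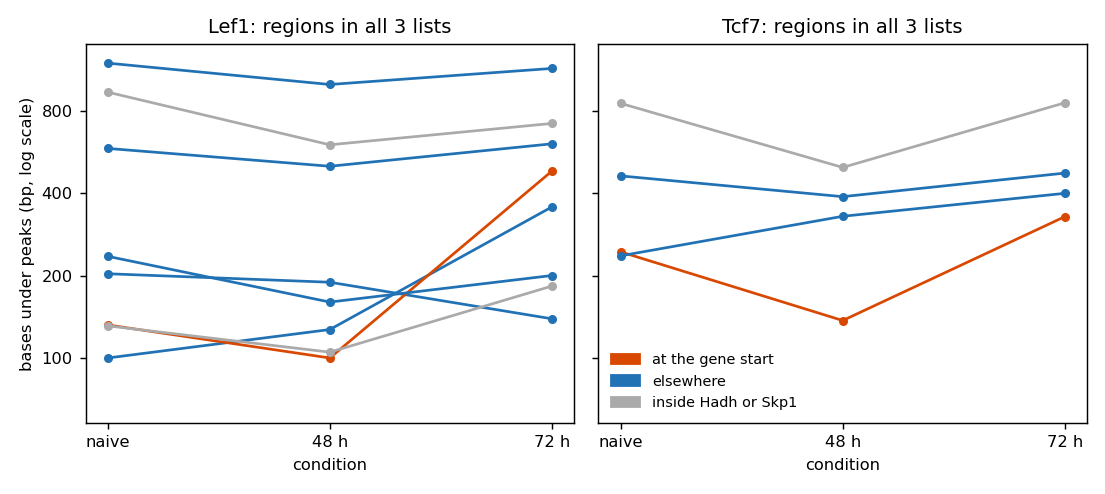
Bases under peaks (y axis, bp, log scale) in naive cells, at 48 h and at 72 h for each of the 8 Lef1 and 4 Tcf7 regions present in all 3 conditions, 1 line per region. The regions at the Lef1 start and at the outer end of Tcf7, in orange, go from 132 to 100 to 481 bp at Lef1 and from 244 to 137 to 328 bp at Tcf7.

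Lost regions were mostly narrow, as over the genome. The naive-only regions had a median of 178 bp under naive peaks at Lef1 (102 to 292 bp) and 210 bp at Tcf7 (113 to 866 bp), and 193 bp over the genome. Regions in all 3 conditions had medians of 219 bp at Lef1, 353 bp at Tcf7 and 521 bp over the genome. All naive regions were split by width into 4 classes of nearly equal number, and 41 of the 57 naive regions of both genes fell in the narrower 2. In the narrowest class (100 to 171 bp) 17 of 20 were lost at 48 h, or 85%, where the genome had 84%. In the next (172 to 277 bp) 17 of 21 were lost, or 81% against 71.2%, and from 278 to 500 bp 7 of 9, or 77.8% against 52.9%. Of the widest (501 to 3205 bp) 3 of 7 were lost, or 42.9% against 15.2%. At 72 h the lost shares in the same order were 75%, 71.4%, 55.6% and 14.3%, beside 78.3%, 63.8%, 43.6% and 10.8% over the genome. In each width class at both times the genome's share lay inside the interval of the loci, so within a class the loss at these genes was not distinguishable from that elsewhere at this number of regions.

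**Figure D4:**
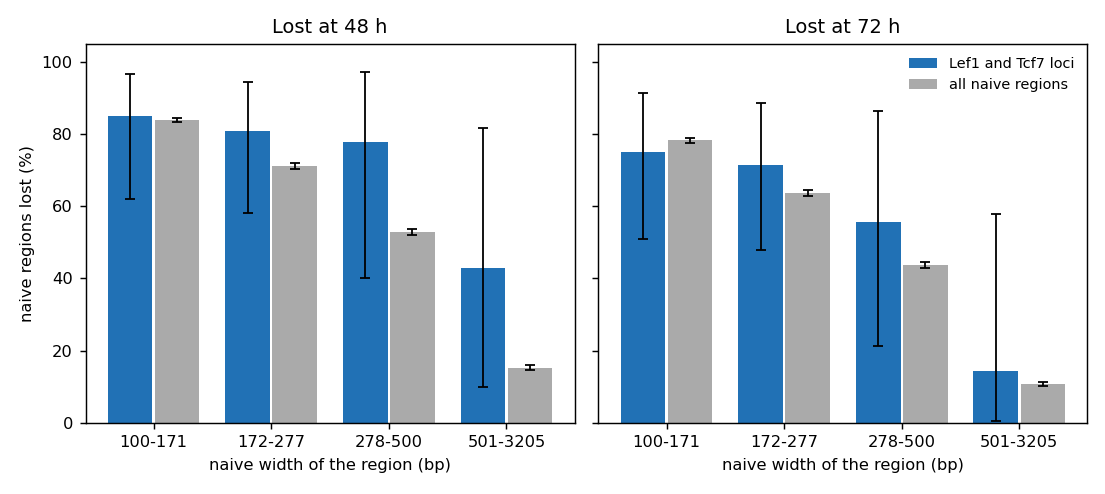
Share of naive regions lost (y axis, %) at 48 h and 72 h by the bases under naive peaks (x axis, bp, in 4 classes of nearly equal number), for the Lef1 and Tcf7 loci together (blue, 57 regions) and for all naive regions (grey). Error bars are exact 95% binomial intervals, and those of the loci include the genome's value in each class.

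Scores were set beside those of the same presence class within each Th17 list. The 8 constant Lef1 regions had 48 h scores from 41 to 213 with a median of 64.5, and 72 h scores from 40 to 293 with a median of 102.5, where the constant regions of the genome had medians of 94 and 133. The 4 constant Tcf7 regions had medians of 65 and 152. Regions gained at both times had a median 48 h score of 72 at Lef1 and 46.5 at Tcf7, where the genome's median was 64.5. They had 72 h scores from 37 to 177 at Lef1, with a median of 46, and from 58 to 135 at Tcf7, with a median of 65, and the genome's median for this class was 91. The 2 Lef1 and 3 Tcf7 regions at 72 h only scored from 33 to 68, and the genome's median was 51.

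**Figure D5:**
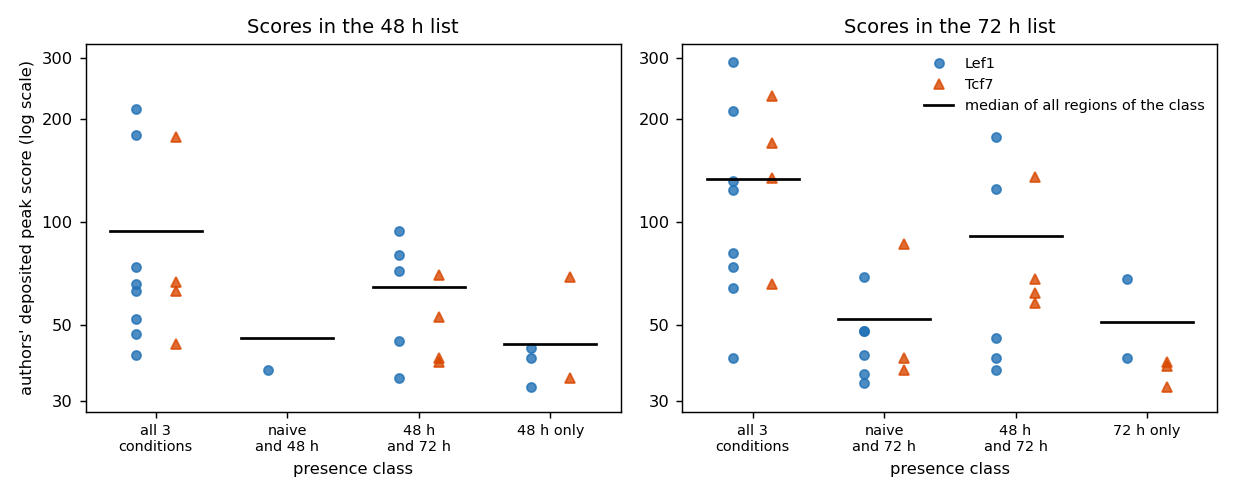
Deposited peak scores (y axis, log scale) of the Lef1 regions (blue circles) and Tcf7 regions (orange triangles) in the 48 h list and the 72 h list, by presence class, with the median of all regions of the class as a black line. Scores are read within a list only; in the 72 h list the highest are 293 at Lef1 and 232 at Tcf7, both from regions present in all 3 conditions.

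Among all 21900 protein-coding genes taken with the same flanks, 20 had at least the 35 naive regions of Lef1 and 244 had at least the 22 of Tcf7, Lef1 and Tcf7 included. For the 390 genes with at least 20 naive regions, the median lost share was 63% at 48 h (quartiles 50 and 71.4%) and 54.4% at 72 h (41.5 and 65%). Lef1 and Tcf7 lay above the upper quartile at 48 h. At 72 h Tcf7 lay above it and Lef1 between the median and the upper quartile. Of these genes 70 had a lost share at least as high as Lef1 at 48 h and 31 as high as Tcf7.

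The genes with the most similar patterns were found by the total variation distance between the shares of their regions in the 7 presence classes, which is 0 for equal shares and 1 for no overlap. For Lef1, the nearest of 8418 genes with at least 10 regions and no shared window were Fyb, an adaptor protein gene of T cells, at 0.033, Ccr7, the lymph node homing receptor gene, at 0.044, and Cryba4, a lens crystallin gene, at 0.044. Fyb went from 25 naive regions to 13 and 15, and Ccr7 from 23 to 11 and 15. For Tcf7, the nearest of 8419 genes were Jmjd1c at 0.046, Rbms1 at 0.047 and Cerk at 0.062, and Jmjd1c went from 24 to 11 and 16. The distance between Lef1 and Tcf7 was 0.11, which put Tcf7 at place 53 of the genes compared with Lef1. These patterns rest on 3 lists.

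The other genes of the family and of the β-catenin pathway were counted with flanks of 10 kb. With these flanks Lef1 had 27 naive regions, 9 at 48 h and 15 at 72 h, and Tcf7 had 9, 4 and 4. The list of 36 pathway genes had 179 distinct naive regions, of which 88 (49.2%) were lost at 48 h and 72 (40.2%) at 72 h. Gains made up 34 of its 125 regions at 48 h and 54 of its 161 at 72 h. Over the genome 38.8% and 49.2% were gains. Both lost shares lay below those of all naive regions, 55.9% and 49.2%. The genome's shares also cover regions more than 10 kb from any gene. A share for all regions within 10 kb of genes is not given here, so the comparison is between unlike sets. More regions were lost than gained at 21 of the 36 genes at 48 h and at 15 at 72 h, and the opposite held at 6 and 11. Of all 16632 genes with a region, 49.1% had more lost than gained at 48 h and 36.6% at 72 h.

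Of the other TCF genes, Tcf7l2 went from 7 regions to 8 and 11, with 4 gained and 3 lost at 48 h and 6 gained and 2 lost at 72 h. Tcf7l1 went from 9 to 4 and 6, with 6 lost at 48 h and 5 at 72 h. Among the corepressors, Tle4 went from 10 regions to 2 at both times, with 8 lost and 0 gained at each. Bcl9l, which encodes a β-catenin cofactor, went from 12 to 4 and 8. Znrf3, which encodes a ubiquitin ligase that removes Wnt receptors, went from 13 to 11 and 16, Lrp5, a Wnt coreceptor gene, from 9 to 5 and 5, and Rnf43, a ligase gene related to Znrf3, from 9 to 7 and 7. Ctnnb1, the β-catenin gene itself, had 3, 2 and 3 regions.

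The labels were checked on marker genes with flanks of 10 kb. The T cell genes Cd4, Cd3e, Cd3d, Cd3g, Cd247 and Cd28 had regions in every list, 47, 29 and 36 in all. Il17a and Il17f had 0 naive regions and 3 and 1 at 48 h and 5 and 3 at 72 h. Of the naive T cell genes, Ccr7 went from 7 regions to 3 at both times and Il7r, the IL-7 receptor gene, had 4, 2 and 3. Lyz2, Csf1r and Adgre1, markers of myeloid cells, had 0 regions in any list, as did the B cell gene Ms4a1, while Pax5 had 1, 3 and 3 and Cd8a and Cd8b1 together had 4 in each list.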

How the data were processed

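The authors deposited 1 peak list per condition, from 6 libraries. Per the submitters' processing notes, the tools were MACS2 2.2.6, Bowtie2 2.3.4.1, deepTools and SAMtools 1.9, with the builds mm10 and GRCm38. The sources used here do not give the calling threshold, the treatment of duplicates, any Tn5 shift or any pooling. The deposited 48 h and 72 h lists hold a whole-number score per peak, from 30 upward and of unstated scale, and the naive list holds none. The naive list's 1 empty line was dropped.

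Starts were read as 0-based and are given 1-based. Peaks that shared at least 1 bp were merged (Python 3.11.15, pandas 2.3.3). The merge was checked on simulated lists in which peaks of a region always overlapped widely. That check did not probe overlaps of a few bases, split peaks or chained merges. Genes and promoter sequences are from RefSeq GRCm38.p6. Shares have exact Clopper-Pearson 95% intervals (SciPy 1.17.1). The members and gene lists were chosen with earlier results of these data known. Regions given by coordinate were to be those at a gene end, the widest of each presence class, the 3 with the highest 72 h score and the 2 widest kept ones in each locus, with the 6 pathway genes with the most naive regions. Other regions with coordinates, and Ctnnb1, Tcf7l2 and the marker genes, were named after their values were seen. Some marker genes are not reported here.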

Additional observations from a re-analysis of the deposited data

How the results depend on the processing

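The 12 counts and shares of the 2 loci were recomputed under 7 other settings and 1 more chosen after seeing the data. Of the 96 values, 66 stayed within the interval of the share or within 1.5 times the count. The intervals are wide, so a share could move far and still count as unchanged. For example, the Lef1 share lost at 72 h was 60% as reported and 44.4% (4 of 9) without the narrower peaks. Requiring an overlap of 50% of the shorter peak, or joining peaks up to 200 bp apart, moved none of the 12. With flanks of 10 kb, regions gained at Lef1 were 4 at 48 h and 4 at 72 h with 5 in all conditions, and at Tcf7 3 and 3 were gained, 1 was gained from 48 h to 72 h, 1 was in all conditions and 88.9% of naive regions were lost at 72 h. In the gene bodies alone Lef1 gained 4 and 4 with 4 in all conditions, and Tcf7 gained 3 and 3, with 1 gained from 48 h to 72 h and 1 in all conditions; fewer regions are counted by construction. Without peaks narrower than the median of their list, Lef1 gained 2 at 48 h with 3 in all conditions, and Tcf7 gained 3 at 48 h and 3 from 48 h to 72 h with 2 in all conditions. With the widest 40000 peaks of each list, Lef1 had 4 in all conditions and Tcf7 gained 2 from 48 h to 72 h. This cut bears unequally on the lists, which hold 53259 naive peaks, 40624 at 48 h and 53926 at 72 h. With Th17 peaks scoring at least 50, Lef1 gained 3 at 48 h, 3 at 72 h and 4 from 48 h to 72 h, with 5 in all conditions and 77.8% lost at 72 h, and Tcf7 gained 3 and 4. The score cut left all naive peaks in place, because that list has no scores, so fewer Th17 peaks remained to overlap them. Without regions inside other protein-coding genes (added later), Lef1 gained 5 at 48 h. The cause of moves not due to counting fewer regions or peaks was not tested. No paired analysis was possible because each condition has 1 list and no test was run, and for the same reason no replicate could be left out.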
